A study of Mus musculus with 8 samples.

Results

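The 7 mitochondrial transfer RNAs described here stand at the ribosomal RNA end of the mouse mitochondrial genome, among the 37 genes of that genome and its 22 transfer RNAs. They are mt-Tf, mt-Tv, mt-Tl1, mt-Ti and mt-Tm on the plus strand and mt-Tq and mt-Ta on the minus strand. They were chosen by name and position, with their cDNA counts in these same tracks already known, so their levels are given as a description with no test. Members were counted as every listed position within the gene's coordinates on the gene's own strand. The lowest member, mt-Tq, averaged 68.9 CPM per kb, and 4 transfer RNAs outside the set lay above it, mt-Tc at 245, mt-Tt at 171, mt-Tp at 134 and mt-Tl2 at 69.7 CPM per kb, so level alone does not define the set. CPM per kb is cDNAs per 1000000 cDNAs of the library and per kb of gene.

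The study set SRSF3 KO mouse hearts (3) beside control hearts (3), both from mice given 4-hydroxytamoxifen, and mapped SRSF3 on RNA in neonatal cardiomyocytes by iCLIP (2 replicates). Only the iCLIP tracks are used here. Cardiomyocytes of C57BL/6 mice at P0 or P1 received 15 µg of SRSF3-GFP modified mRNA and were irradiated at 254 nm 48 h later. The protein pulled down was therefore the GFP fusion made from transfected mRNA, and no label gives the cultures behind each replicate, so p-values and intervals measure counting error between these libraries, which may be technical. RNase I digestion aimed at RNA of 80 to 200 nt, and the 7 transfer RNAs are 68 to 75 nt long. Replicate 1 held 815414 cDNAs and replicate 2 held 2253688, of which 0.846% and 0.714% lay on the mitochondrial genome. A single cDNA was worth 1.23 CPM in replicate 1, and in replicate 2 it was worth 0.444 CPM. The limit that a count of 0 allows, 3 cDNAs, was 53.3 and 19.3 CPM per kb for a gene of 69 nt. The tracks leave part of the mitochondrial genome empty on both strands. From 6388 to 9457, 9481 to 9817 and 9819 to 10981 on chromosome M no position is listed in the merged track or either replicate. The mRNAs mt-Co3, mt-Atp6, mt-Co2, mt-Nd4l and mt-Atp8, which every cell uses, are listed at 0 there, so a 0 in these runs is not read as absence of binding. No member touches them, but 5 of the other 15 transfer RNAs do, mt-Ts1, mt-Td, mt-Tk, mt-Tg and mt-Tr.

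Mitochondrial DNA is transcribed into long RNAs of either strand, in which transfer RNAs lie between the ribosomal RNAs and mRNAs and are cut out by processing enzymes, so that their ends also set the ends of the neighbouring genes. A mature transfer RNA folds into an acceptor stem, a D arm, an anticodon stem-loop and a T arm, and a CCA tail is added after processing. SRSF3 is a serine and arginine-rich splicing factor of the nucleus and cytoplasm whose known targets are mRNAs, their precursors and microRNA precursors. In iCLIP the protein is crosslinked to RNA with UV light, and reverse transcription tends to stop at the crosslinked base, so each listed position marks where cDNAs began. Reverse transcriptase also stops at modified bases, which transfer RNAs carry in their anticodon loops and elsewhere. With no track from RNA without crosslinking or from another antibody used here, the stops cannot be told apart, and the level of the RNA itself is not given by these tracks.

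The sequences are shown because the results turn on where in each molecule the cDNAs began. They are the DNA-encoded transfer RNAs from the GENCODE M21 transcripts of GRCm38, 5′ to 3′, matched to the members by name, all 7 found. Capitals mark the anticodon, and positions are counted from 1 at the 5′ end.
mt-Tf: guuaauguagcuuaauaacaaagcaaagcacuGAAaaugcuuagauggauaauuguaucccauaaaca
mt-Tv: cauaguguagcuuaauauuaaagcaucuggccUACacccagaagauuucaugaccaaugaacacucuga
mt-Tl1: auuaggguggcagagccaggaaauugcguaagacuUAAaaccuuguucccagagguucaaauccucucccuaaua
mt-Ti: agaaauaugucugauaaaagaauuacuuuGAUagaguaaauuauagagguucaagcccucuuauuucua
mt-Tq: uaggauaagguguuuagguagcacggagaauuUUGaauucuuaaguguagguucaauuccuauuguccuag
mt-Tm: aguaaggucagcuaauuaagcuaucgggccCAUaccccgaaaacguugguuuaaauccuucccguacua
mt-Ta: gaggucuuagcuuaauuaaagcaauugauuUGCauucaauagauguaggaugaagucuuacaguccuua
On chromosome M, in the numbering of GENCODE M21 that was checked against the mm9 tracks, mt-Tf (phenylalanine) runs from 1 to 68, mt-Tv (valine) from 1025 to 1093, mt-Tl1 (leucine) from 2676 to 2750, mt-Ti (isoleucine) from 3706 to 3774 and mt-Tm (methionine) from 3845 to 3913. On the minus strand, mt-Tq (glutamine) lies from 3772 to 3842 and mt-Ta (alanine) from 5018 to 5086. The plus-strand genes alternate with others: mt-Tf, mt-Rnr1, mt-Tv, mt-Rnr2, mt-Tl1, mt-Nd1 and mt-Ti, and mt-Tm is followed by mt-Nd2. mt-Rnr1 and mt-Rnr2 are the small and large ribosomal RNAs, and mt-Nd1 and mt-Nd2 encode subunits of respiratory complex I.

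The 7 members together held 153 cDNAs in replicate 1 and 329 in replicate 2 on 490 nt, and 42 and 99 cDNAs fell on the other 15 transfer RNAs (1011 nt). Their joint density in replicates 1 and 2 was 383 and 298 CPM per kb, a mean of 340 ± 60.1 (SD, n = 2), against 50.9 and 43.5 CPM per kb, a mean of 47.2 ± 5.30, on the other 15. The ratio of densities, members over other transfer RNAs, was 7.52 in replicate 1 and 6.86 in replicate 2. Set against only the 10 other transfer RNAs that touch no empty run, which had 74.9 and 63.5 CPM per kb, the ratio was 5.11 and 4.69. On that basis the members carried 78.9% and 77.4% of the transfer RNA cDNAs on 42.2% of the length. The 2 ribosomal RNAs between them lay higher, at 2319 and 1836 CPM per kb, which is 6.06 and 6.16 times the members' density. Of the cDNAs on the mitochondrial genome, the members held 2.22% in replicate 1 (95% Wilson interval 1.90 to 2.59) and 2.04% in replicate 2 (1.84 to 2.27). The genes outside the set whose density came nearest to the joint density were 3 mRNAs of respiratory complex I subunits, mt-Nd5 at 319 ± 1.32, mt-Nd2 at 405 ± 13.9 and mt-Nd1 at 271 ± 22.6 CPM per kb (SD, n = 2). Nearness was the distance of the log2 means over the 2 replicates, with log2 differences from the 7 of -0.09, 0.25 and -0.33. mt-Co1 and mt-Nd4 reach into the empty runs, and their densities count that sequence too.

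Within the set, mt-Tm, mt-Tv and mt-Tf stood above the other 4. mt-Tm, which carries methionine for both initiation and elongation in mitochondria, had 49 cDNAs in replicate 1 and 85 in replicate 2, or 871 and 547 CPM per kb (mean 709 ± 229, SD, n = 2). mt-Tv, which separates the ribosomal RNAs and in human cells is also a structural RNA of the mitochondrial ribosome, had 33 and 85 cDNAs, or 587 and 547 CPM per kb (567 ± 28.2). mt-Tf, the first gene of the plus-strand transcript, had 34 and 73 cDNAs, or 613 and 476 CPM per kb (545 ± 96.8). These 3 ranked 1, 2 and 3 among the 22 transfer RNAs, and their replicate values overlapped, so their order among themselves is not set. The last 5 nt of mt-Tv, at the boundary with mt-Rnr2, gave 14 of its 33 and 37 of its 85 cDNAs in replicates 1 and 2. Its rank without them was not computed. mt-Tl1, between mt-Rnr2 and mt-Nd1, had 10 and 36 cDNAs, or 164 and 213 CPM per kb (188 ± 35.0). mt-Ti had 12 and 19 cDNAs, or 213 and 122 CPM per kb (168 ± 64.4). mt-Ta had 11 and 20 cDNAs, or 196 and 129 CPM per kb (162 ± 47.3). The replicate values of mt-Tl1, mt-Ti and mt-Ta overlapped. mt-Tq was lowest with 4 and 11 cDNAs, or 69.1 and 68.7 CPM per kb (68.9 ± 0.24). Between neighbours in the order, mt-Tf and mt-Tl1 differed by 357 CPM per kb, and neither their replicate values nor their 95% Poisson intervals overlapped in either replicate. For mt-Ta and mt-Tq the replicate values did not overlap but the Poisson intervals did. Of the other 15 transfer RNAs, 5 are listed at 0 in both replicates, and 4 of these lie in the empty runs.

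**Figure D1:**
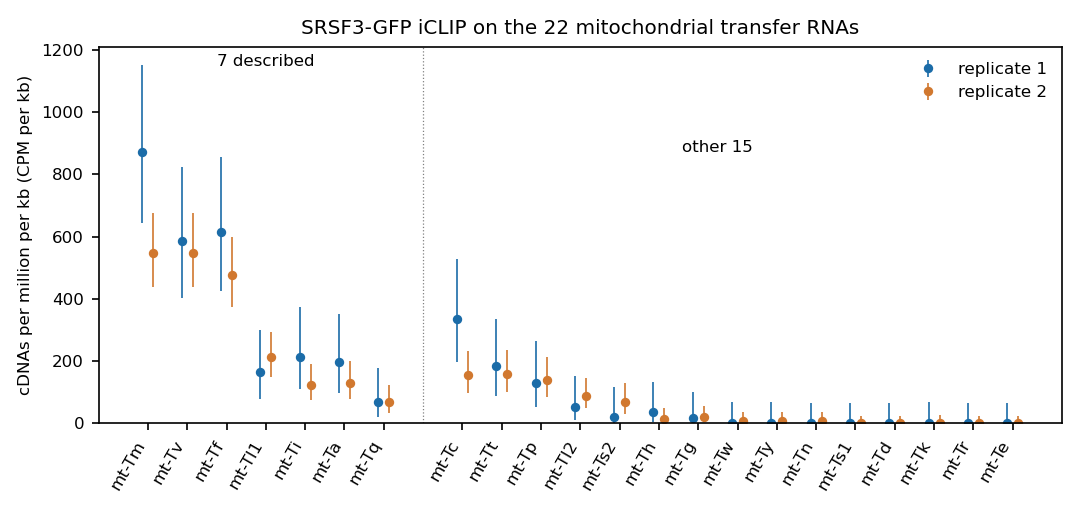
Density of SRSF3-GFP iCLIP cDNAs on each of the 22 mitochondrial transfer RNAs (y axis, cDNAs per 1000000 cDNAs of the library and per kb), with the 7 described on the left and the other 15 on the right. Points are the replicates and bars are exact 95% Poisson intervals, which cover counting error only. mt-Tm, mt-Tv and mt-Tf lie between 476 and 871 CPM per kb, above the other genes drawn, and mt-Tq lies at 69.1 and 68.7. mt-Ts1, mt-Td, mt-Tk, mt-Tg and mt-Tr touch runs of the genome where no position is listed.

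In mt-Tf the cDNAs gathered on 1 base. Position 36, the adenosine directly 3′ of the GAA anticodon, held 15 of 34 cDNAs in replicate 1 (44.1%) and 33 of 73 in replicate 2 (45.2%). The next named positions, U at 32 and G at 44, held 1 and 6 cDNAs and 1 and 4 cDNAs in replicates 1 and 2. The whole anticodon stem-loop, the 17 nt from 26 to 42, took in 24 of 34 cDNAs (70.6%) and 52 of 73 (71.2%), shares that differ by less than the counting interval of either. Only 23.5% and 24.7% of its cDNAs lay nearer the 5′ end than the 3′ end, here called the 5′ side. Few lay at the ends, with 2 cDNAs in each replicate in the last 5 nt, and 10 and 12 cDNAs followed in the next 30 nt.

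mt-Tm had the same kind of single strong base. Position 32, the adenosine in the middle of the CAU anticodon, at 3876 on chromosome M, held 24 of 49 cDNAs in replicate 1 (49.0%) and 32 of 85 in replicate 2 (37.6%), or 29.4 and 14.2 CPM. The anticodon base after it, U at 33, held 5 and 7 cDNAs. The stem-loop, positions 24 to 40, took in 31 of 49 (63.3%) and 42 of 85 (49.4%). The last nucleotide, A at 69, held 5 and 8 cDNAs, the third of the named positions, and the last 5 nt held 8 and 13. A cDNA listed at A 69 lies almost wholly in mt-Nd2, the next gene. On this gene 79.6% and 81.2% of cDNAs lay on the 5′ side, but position 32 lies just before the midpoint of mt-Tm and position 36 just past that of mt-Tf, so these shares turn on the strong base of each gene. In the 30 nt before its 5′ end there were 2 and 8 cDNAs, against 27 and 60 in the 30 nt after its 3′ end, which lie in mt-Nd2.

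mt-Tv was placed differently from both. Its strongest positions were its last bases, A at 69 with 7 cDNAs in replicate 1 and 14 in replicate 2, and G at 68 with 5 and 17. The last 5 nt held 14 of 33 cDNAs (42.4%, 95% Wilson interval 27.2 to 59.2) and 37 of 85 (43.5%, 33.5 to 54.1), although they make up 7.25% of the gene. A second group lay near the 5′ end, where A at 15 held 3 and 5 cDNAs and U at 16 held 3 and 4. The anticodon stem-loop took 15.2% of cDNAs in replicate 1 (95% Wilson interval 6.65 to 30.9) and 8.2% in replicate 2 (4.05 to 16.0). The stem-loop makes up 24.6% of the length, and only the interval of replicate 2 lay below that. Signal went on past the 3′ end, with 37 and 103 cDNAs in the first 30 nt after it, inside mt-Rnr2, against 7 and 8 in the 30 nt before its 5′ end, in mt-Rnr1. The cDNAs of mt-Tv and those at the start of mt-Rnr2 thus formed 1 run across the boundary. Reverse transcription runs toward the 5′ end and stops near the listed position, so a cDNA listed at the last base of mt-Tv lies almost wholly in mt-Rnr2.

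mt-Tl1 followed a busy stretch of mt-Rnr2. The last 30 nt of mt-Rnr2 held 107 cDNAs in replicate 1 and 203 in replicate 2, but its last 20 nt held 7 and 32, and mt-Tl1 itself held 10 and 36. Inside mt-Tl1 the named positions were U at 35, directly 5′ of the UAA anticodon, with 3 cDNAs in each replicate, A at 30 with 1 and 3, and G at 28 with 2 in each. The stem-loop, positions 29 to 45, held 60% and 41.7% of cDNAs, and the 5′ side 70% and 69.4%. No position of mt-Tl1 exceeded 5 cDNAs in either replicate, and U at 35 held 30% of the cDNAs in replicate 1 (95% Wilson interval 10.8 to 60.3) and 8.33% in replicate 2 (2.87 to 21.8).

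mt-Ti, mt-Ta and mt-Tq carried few cDNAs. In mt-Ti, which ends the run after mt-Nd1, G at 30, the first anticodon base, held 3 and 6 cDNAs in replicates 1 and 2, and U at 42 and U at 41, just past the stem-loop, held 3 and 2 and 1 and 4. In mt-Ta, C at 33, the last anticodon base, held 2 cDNAs in each replicate, and U at 36 and A at 39 held 2 and 1 each. Its stem-loop took in 10 of 11 cDNAs in replicate 1 (90.9%) and 12 of 20 in replicate 2 (60%). In mt-Tq no position was hit in both replicates, and 2 of 4 and 2 of 11 cDNAs lay in the stem-loop. None of these 3 genes had a cDNA in its last 5 nt in either replicate. In the 30 nt past their 3′ ends, mt-Ti had 0 and 1 cDNA, mt-Tq 0 and 2, and mt-Ta 0 in both. At these depths a 0 in the last 5 nt of the gene allows a share of up to 25% and 15.8% in mt-Ti, 75% and 27.3% in mt-Tq, and 27.3% and 15% in mt-Ta, in replicates 1 and 2. No gene adjoins these 3 past the 3′ end on their own strand, whereas mt-Tf, mt-Tv, mt-Tl1 and mt-Tm are followed by a ribosomal RNA or an mRNA.

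**Figure D2:**
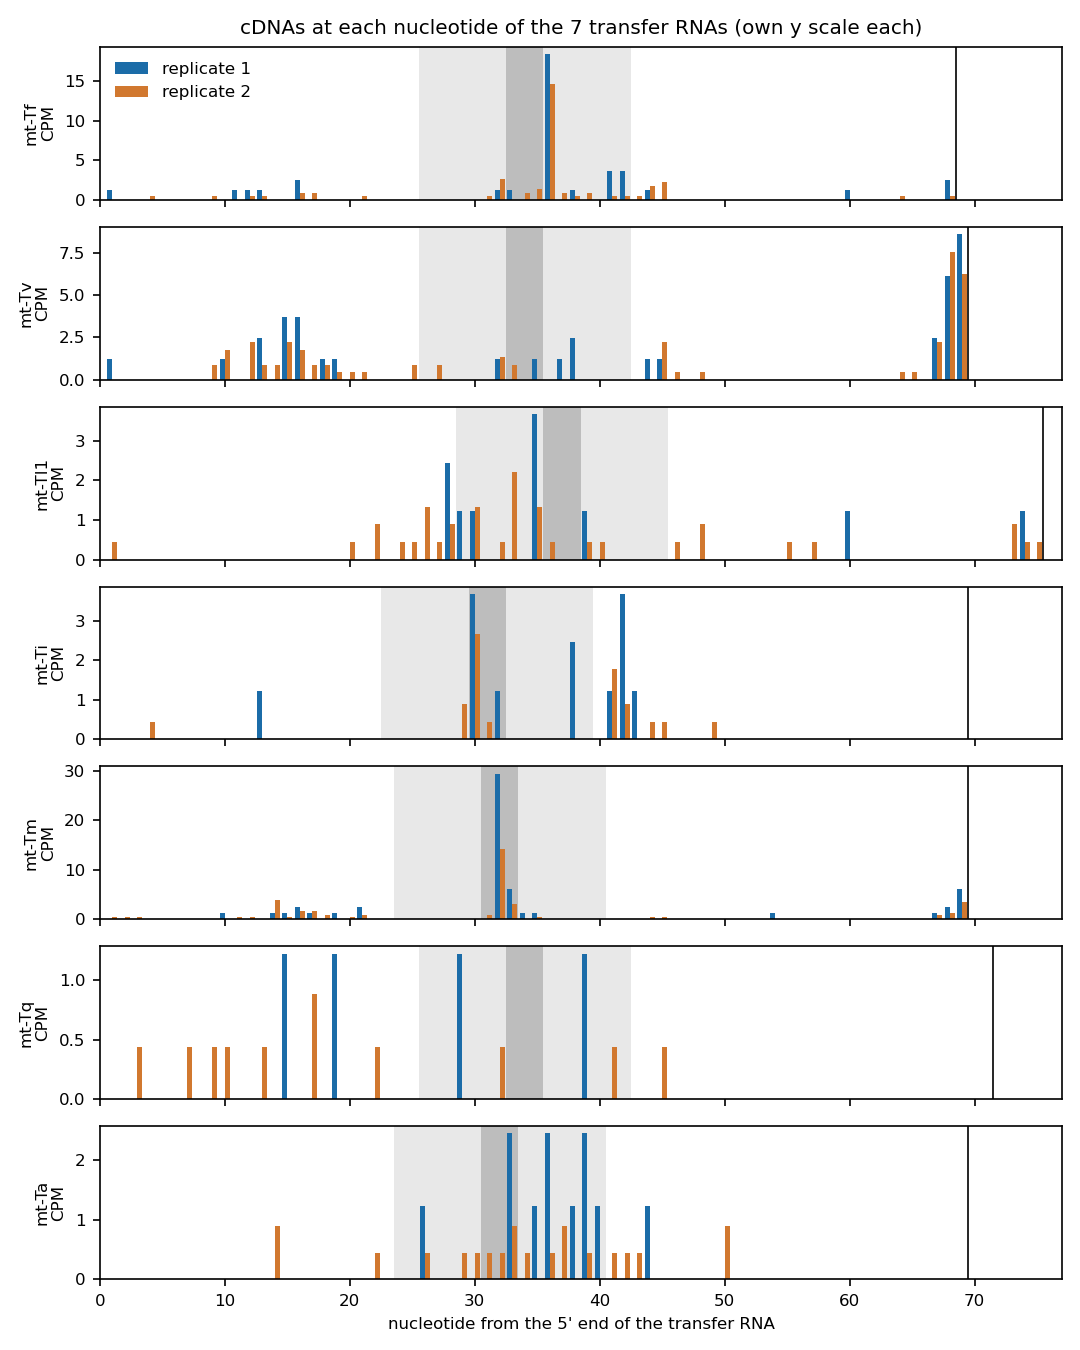
cDNAs per 1000000 cDNAs of the library (y axis, own scale in each panel) at each nucleotide from the 5′ end (x axis, nt) of the 7 transfer RNAs, replicate 1 beside replicate 2. Light grey marks the anticodon stem-loop, dark grey the anticodon and the vertical line the 3′ end. Single bases stand out in mt-Tf (position 36) and mt-Tm (position 32), and the last bases in mt-Tv (positions 68 and 69).

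Taken over all 7, the anticodon stem-loop held 84 of 153 cDNAs in replicate 1 (54.9%, 95% Wilson interval 47.0 to 62.6) and 139 of 329 in replicate 2 (42.2%, 37 to 47.6), and it makes up 24.3% of their length. Its 7 nt loop alone held 62 and 117 cDNAs, on 10% of the length. In the other 15 transfer RNAs the stem-loop held 64.3% (49.2 to 77) and 70.7% (61.1 to 78.8) of cDNAs, so this placement is not particular to the 7. In replicate 2 the share was lower in the 7, with intervals that do not overlap. There mt-Tv had only 7 of its 85 cDNAs in the stem-loop. In replicate 2 mt-Tm (49.4%), mt-Tl1 (41.7%), mt-Ti (47.4%), mt-Ta (60%) and mt-Tq (18.2%) also lay below 70.7%, and mt-Tf (71.2%) did not. The share without mt-Tv was not computed, so the lower share is not read as a trait of all 7. The position with the highest CPM in the lower replicate lay in the anticodon loop in 5 of the 6 members that had such a position, all but mt-Tv, and in 5 of 7 of the other transfer RNAs that had one. Of the length of the other 15 transfer RNAs the loop makes up 10.4%. This position held 2 cDNAs in each replicate in mt-Ta and 1 in each in mt-Tl2, so both tallies rest partly on few cDNAs. By share of the gene's own cDNAs, G at 30 of mt-Ti, with 25% (8.89 to 53.2) and 31.6% (15.4 to 54.0), was not set apart by its intervals from A at 32 of mt-Tm, with 49.0% and 37.6%. The 5′ side held 51.0% of the members' cDNAs in replicate 1 and 55.3% in replicate 2, and without mt-Tm 37.5% and 46.3%.

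**Figure D3:**
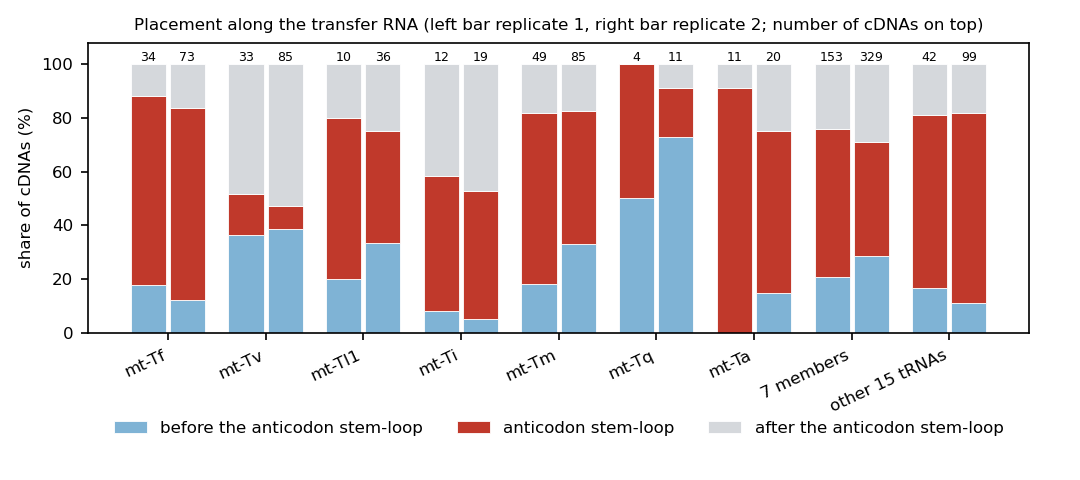
Share of cDNAs (y axis, percent) that lay before, in and after the anticodon stem-loop, for each of the 7 transfer RNAs, for the 7 together and for the other 15. In each pair the left bar is replicate 1 and the right bar replicate 2, with the number of cDNAs on top. mt-Tv has the smallest stem-loop shares, 15.2% and 8.2%, against 54.9% and 42.2% for the 7 together.

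Toward the 3′ end the members shared a nearly empty stretch. From 19 to 5 nt before the last nucleotide, 15 nt that make up 21.4% of their length, 3 of 153 cDNAs lay in replicate 1 (1.96%, 95% Wilson interval 0.669 to 5.61) and 4 of 329 in replicate 2 (1.22%, 0.474 to 3.08). The same stretch of the other 15 transfer RNAs held 0 of 42 and 0 of 99 cDNAs, which allows shares of up to 7.14% and 3.03%, so the empty stretch too was not particular to the 7. On a cut-out transfer RNA, a cDNA listed there has at most 19 encoded nt beyond the listed position. Whether cDNAs so short could be mapped was not tested, so the empty stretch is not read as absence of binding. The last 5 nt then held 25 cDNAs (16.3%) and 56 (17%) of the members, on 7.14% of their length. Of these, mt-Tv gave 14 and 37 and mt-Tm 8 and 13, mt-Tf gave 2 and 2 and mt-Tl1 1 and 4, while mt-Ti, mt-Tq and mt-Ta gave none. Over the 5 plus-strand members aligned at the 3′ end, the last 5 nt held 30.7 and 24.9 CPM in replicates 1 and 2. The 5 nt beyond the end held 24.5 and 22.6 CPM, so cDNAs were listed on either side of the boundary. A cDNA listed at the last nucleotide lies almost wholly past the boundary. If the listed position is the base before the cDNA, which is not given, such a cDNA begins in what follows the member. In both minus-strand members together the last 5 nt held 0 cDNAs in either replicate.

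**Figure D4:**
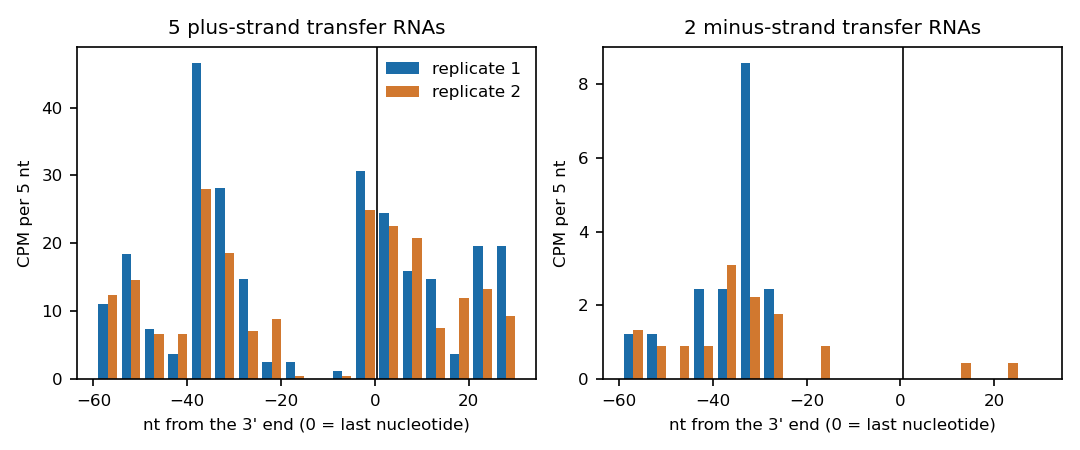
cDNAs per 1000000 cDNAs of the library in stretches of 5 nt (y axis) by distance from the 3′ end (x axis, nt, with 0 at the last nucleotide), summed over the 5 plus-strand members (left) and the 2 minus-strand members (right), replicate 1 beside replicate 2. On the plus strand the stretch from 14 to 10 nt before the end is empty in both replicates, and the last 5 nt hold 30.7 and 24.9 CPM. The minus-strand panel rests on 15 and 31 cDNAs inside the genes.

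Beside their surroundings the members differed. The joint density inside them over that of the 30 nt on either side was 0.594 in replicate 1 and 0.602 in replicate 2, a mean of 0.598 ± 0.006 (SD, n = 2), and with 20 nt on either side it was 1.21 and 0.924 (mean 1.07 ± 0.204), so whether the members lie above or below their flanks depends on the flank and the replicate. The 30 nt before mt-Tl1, in mt-Rnr2, held 107 and 203 cDNAs, and the next highest flank, after mt-Tv, held 37 and 103. The ratio without the flank before mt-Tl1 was not computed, so 0.594 and 0.602 are not read as the members lying below their flanks in general. No stretch before mt-Tf was counted. mt-Tm and mt-Tv stood above the stretch before them, 0.710 and 1.23 cDNAs per nt inside mt-Tm against 0.067 and 0.267 before it, and 0.478 and 1.23 inside mt-Tv against 0.233 and 0.267 before it, in replicates 1 and 2. Both stood below the stretch after them, which held 0.9 and 2 cDNAs per nt after mt-Tm and 1.23 and 3.43 after mt-Tv. mt-Tl1 stood below the stretch before it, 0.133 and 0.480 against 3.57 and 6.77 cDNAs per nt. On the strand opposite to each gene the 7 held only 3 cDNAs in each replicate. The overlap of mt-Nd1 with mt-Ti (3706 to 3707) and that of mt-Ti with mt-Tq on the other strand (3772 to 3774) held no cDNA in either replicate, so no cDNA of the replicates was counted for more than 1 gene. None of the 30-nt stretches of the 7 that could be read from the transcripts had an identical copy in the nuclear transcripts of GENCODE M21, and the rest of the nuclear genome was not searched.

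Adenosine was the most frequent base at the listed positions, in large part through 2 bases. A was the base at 47.7% of the members' cDNAs in replicate 1 (95% Wilson interval 40.0 to 55.6) and 51.1% in replicate 2 (45.7 to 56.4), and makes up 33.3% of their sequence. U, which UV light crosslinks readily, was the base at 32.7% and 24.9% of cDNAs against 30% of the sequence, C at 9.15% and 7.60% against 17.6%, and G at 10.5% and 16.4% against 19.2%. The A at mt-Tf 36 and at mt-Tm 32 alone gave 39 of 73 and 65 of 168 of the cDNAs at A in replicates 1 and 2. Without these 2 bases A was at 34 of 114 cDNAs in replicate 1 (29.8%, 22.2 to 38.8) and 103 of 264 in replicate 2 (39.0%, 33.3 to 45), so replicate 1 was then not above the share of A in the sequence. Moving each site 1 nt downstream made the uridine share 36.4%, so the base shares depend on which nucleotide a listed position names. CNNC, a pattern that SRSF3 is known to bind beside microRNA hairpins, was found on the RNA strand of 4 of the 7 members and 13 of the other 15 transfer RNAs, and 30.1% (23.4 to 37.7) and 23.4% (19.2 to 28.3) of the members' cDNAs lay within 5 nt of one, where 20% of their nucleotides lie. The A at mt-Tm 32, within 5 nt of a CNNC, alone gave 24 of these 46 cDNAs in replicate 1 and 32 of 77 in replicate 2. The shares above 20% thus rest in large part on this base, and the shares without it were not computed. Among the cDNAs of the merged track beyond the replicates the share near a CNNC was 16.7% (12.7 to 21.7), on the other side of 20%.

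The replicates were compared gene by gene with a two-sided exact binomial test on cDNAs, adjusted by Benjamini-Hochberg over the 27 mitochondrial genes with a cDNA. Of these, 2 differed, mt-Rnr1 and mt-Rnr2, which is 7.41% of the genes tested, and of the 7 members 0 differed, with 1 member and 4 genes in all at an unadjusted p under 0.05. That member was mt-Tm, with a log2 ratio of replicate 1 over replicate 2 of 0.67 (95% interval 0.13 to 1.20, exact p = 0.0108, adjusted p = 0.0975). The intervals of the less covered members were wide, from -2.10 to 1.76 for mt-Tq around 0.01 and from -0.37 to 1.92 for mt-Ti around 0.80, so these intervals hold 2-fold differences between the libraries. For mt-Tf the ratio was 0.36 (-0.27 to 0.97), for mt-Tv 0.10 (-0.52 to 0.70), for mt-Ta 0.60 (-0.60 to 1.73) and for mt-Tl1 -0.38 (-1.56 to 0.66). With library scaling, 6 of the 7 members and 15 of the 23 mitochondrial genes with a cDNA in both replicates had a higher share in replicate 1, mt-Tq by 0.01 only, and with scaling to the mitochondrial total 4 of the 7 members did. The share of cDNAs on the 5′ side was compared by a two-sided Fisher's exact test, adjusted over 14 transfer RNAs. None passed, a share called of 0%, none had an unadjusted p under 0.05, and the lowest p of a member was 0.258 (exact, adjusted p = 1).

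**Figure D5:**
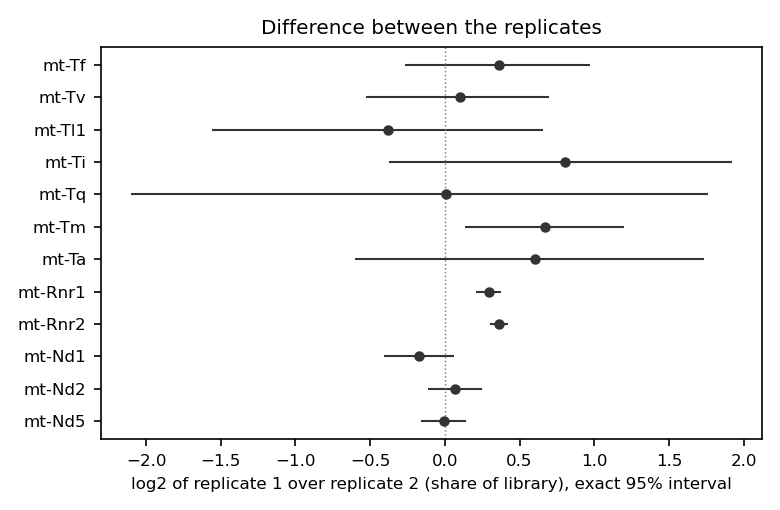
Log2 ratio of the share of the library, replicate 1 over replicate 2 (x axis), for the 7 transfer RNAs, both ribosomal RNAs and the 3 mRNAs nearest in density, with exact 95% intervals from the binomial test. The members' intervals cover 0 except that of mt-Tm (0.13 to 1.20), and the narrow intervals of mt-Rnr1 and mt-Rnr2 do not.

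Site by site the replicates shared part of their positions. Of 71 positions hit in replicate 1 and 124 in replicate 2, 44 were the same, which is 62.0% and 35.5% of the positions, and 81.0% and 64.7% of the cDNAs lay at these 44. mt-Tm shared 11 of 15 and 21 positions, mt-Tv 11 of 16 and 24, mt-Tf 10 of 14 and 22, mt-Tl1 5 of 7 and 22, mt-Ta 4 of 8 and 16, mt-Ti 3 of 7 and 9, and mt-Tq 0 of 4 and 10. mt-Tm, mt-Tv and mt-Tf thus shared 10 or 11 positions each and the other 4 members from 0 to 5, and single cDNAs made up 45 of the 71 and 69 of the 124 positions.

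The authors' merged track held 751 cDNAs on the 7 members at 200 positions, on a total of 4207555 cDNAs. Per its header it sums 5 libraries, the replicates and 3 with other identifiers, so it is not independent of the replicates. In it the stem-loop held 362 cDNAs and the loop 291. By gene it counted 158 cDNAs on mt-Tf, 167 on mt-Tv, 100 on mt-Tl1, 59 on mt-Ti, 179 on mt-Tm, 29 on mt-Tq and 59 on mt-Ta.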

How the data were processed

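Binding of SRSF3-GFP was measured by iCLIP in neonatal mouse cardiomyocytes (2 replicates). The deposited tracks hold a signed score at single nucleotides, in which size counts cDNAs and sign gives the strand, with no scaling between libraries, per the file headers and the values. They are on mm9 with Ensembl 59 annotation per the file headers, and reads were mapped with Bowtie 0.10.1 per the submitters' processing notes. Not given in the sources used here are the handling of duplicates and of reads with several matches, and whether the listed position is the cDNA's first base or the one before it. The replicates' headers share 1 library identifier, and the merged track is a sum over 5 libraries.

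Groups follow the labels. cDNAs were counted per gene on its own strand with Python 3.11.15, numpy 2.4.6, pandas 2.3.3 and scipy 1.17.1, and divided by the library total (CPM) and by length. Gene coordinates and sequences come from GENCODE M21, which is on GRCm38, and were not converted. The shared numbering of the mitochondrial genome was checked by shifting the sequence by up to 10 nt. The share of plus-strand positions at uridine was highest without a shift, 35.9% in replicate 1 and 35.0% in replicate 2. A shift of 1 gave 35.6% and 33.9%, so this check alone does not settle the numbering to 1 nt. The anticodon stem-loop was taken as the anticodon with its 7 nt loop and 5 bp of stem on either side, 17 nt. Shares carry 95% Wilson intervals and counts exact Poisson intervals, which cover counting error only, since PCR copies are not independent molecules. Replicates were compared by the exact binomial test and Fisher's exact test with Benjamini-Hochberg adjustment at 0.05, tested on simulated data.

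The members and comparisons were chosen with earlier results of these data known, and the stem-loop and the stretches near the 3′ end were chosen after the profiles had been seen. Named positions are the 3 per member with the highest CPM in the lower replicate. Other positions given were chosen after their values were seen. Other genes named are those that touch a member, the 3 nearest in density and those that place a member in the order. The heart samples were not analysed here, and no mm9 genome was used. Alternatives tried were other scalings, minimum counts, each position counted once, sites moved by 1 nt, trimmed ends, other stretches and flanks, leaving out mt-Tm and leaving out each replicate.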

Additional observations from a re-analysis of the deposited data

Results flagged for a closer look

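The merged track holds cDNAs on the members beyond those of the replicates, from libraries that none of the tests above use. Above they were used for a CNNC share, the counts of the merged track and the empty runs. On each member they exceed the 3 cDNAs that a count of 0 allows. There were 51 such cDNAs on mt-Tf, 49 on mt-Tv, 54 on mt-Tl1, 28 on mt-Ti, 14 on mt-Tq, 45 on mt-Tm and 28 on mt-Ta. Out of 1138453 such cDNAs in all, they gave 659 CPM per kb on mt-Tf, 624 on mt-Tv, 632 on mt-Tl1, 356 on mt-Ti, 173 on mt-Tq, 573 on mt-Tm and 356 on mt-Ta. mt-Tl1 stood beside mt-Tf and mt-Tv here, against 164 and 213 CPM per kb in replicates 1 and 2, and mt-Tq was lowest again. These libraries are not described in the labels used here, so no test was made.

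The position with the highest CPM in the lower of the replicates was also the strongest of these cDNAs in mt-Tf (36, with 18 of 51 cDNAs), mt-Tv (69, with 9 of 49), mt-Ti (30, with 6 of 28) and mt-Tm (32, with 17 of 45). In mt-Tv the neighbouring position 68 was higher than 69 in replicate 2, with 17 cDNAs against 14. In mt-Ta position 33 held 3 of the 28, tied with another, and in mt-Tl1 position 35 held 3 of 54 and was not the strongest. Of the 44 positions that the replicates share, 30 were also hit in these libraries, and they held 109 of the 269 cDNAs (40.5%). From 19 to 5 nt before the 3′ end lay 1 of the 269 cDNAs, and in the last 5 nt 27 (10.0%).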

How the results depend on the processing

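No paired analysis was possible because the iCLIP samples form 1 group with 1 library for each replicate number. The count of mitochondrial genes that differed between replicates was 2 and became 7 with each position counted once, none of them a member, and stayed at 2 or 3 otherwise. No member's replicate ratio changed its call in 14 alternatives, and 3 changed sign. Scaling to the mitochondrial total moved all log2 ratios by -0.24, and without the ribosomal RNAs by -0.05. No transfer RNA passed the test of its 5′ side share under any alternative run.

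With each position counted once, the joint density was 155 CPM per kb, the 5′ side share 56.3%, the uridine share 37.7%, the density over the flanks 0.880, the stem-loop share 36.9% and the share from 19 to 5 nt before the 3′ end 3.32%. Set against only the other transfer RNAs that touch no run of 200 nt or more without a listed position, a choice made after seeing the data, the density ratio was 4.90, against 7.19 for all 15. Per 1000000 mitochondrial cDNAs the joint density was 43492 per kb, and 134307 without the ribosomal RNAs. Sites moved 1 nt downstream gave 58.0% on the 5′ side, 36.4% at uridine and 0.520 over the flanks, and 1 nt upstream 0.699 over the flanks. The 5′ side share was 63.1% without 5 nt at each end and 41.9% without mt-Tm, and with the length cut into 3 equal parts the first held 22.9%. Density over flanks of 20 nt was 1.07 and of 50 nt 0.377. The loop alone held 38.0%. From 24 to 5 nt before the 3′ end lay 5.28%, and from 19 nt to the end 18.3%. Why these moved was not tested. Leaving out a replicate gave a joint density of 298 to 383 CPM per kb, 51.0 to 55.3% on the 5′ side, 24.9 to 32.7% at uridine, 0.594 to 0.602 over the flanks, 42.2 to 54.9% in the stem-loop and 1.22 to 1.96% near the 3′ end. Depth limits mt-Tq, mt-Ti, mt-Ta and mt-Tl1 most, with 4 to 12 cDNAs each in replicate 1.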
